A study of Triticum aestivum with 12 samples.

Results

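The effect of the light spectrum on DNA methylation in wheat leaves was followed over both levels of putrescine (PUT). It rests on 6 libraries of plants grown under blue (B) light compared with 6 libraries of plants grown under white (W) light. The B libraries were 3 of plants given 0.5 mM PUT in the nutrient solution for 7 days (BP) and 3 of plants without PUT (BC). The W libraries were likewise 3 with PUT (WP) and 3 without it (WC). All plants were hexaploid winter wheat, variety Mv Beres, raised hydroponically at 250 µmol per square metre and second. Blue light made up 82.14% of the B spectrum and 32.32% of the W spectrum. For green light the shares were 1% in B and 45.71% in W, for red light 16.7% in B and 20.71% in W, and for far-red light 0.17% in B and 1.25% in W. B light was thus rich in blue and poor in green but was not monochromatic. Genomic DNA of green leaves was fragmented, precipitated with an antibody against 5-methylcytosine (MeDIP) and sequenced. The measurement is the number of reads of each library at each locus, a stretch of the genome covered by reads. The deposited table holds 11509120 loci, of which 338612 (2.94%) had a count above 10 in at least 4 of the 12 libraries. These were tested with light as the main effect and PUT as an additive factor. The labels name neither the plants nor a batch, so that p-values refer to these libraries. Those of whole-library values measure the spread between the libraries, and those of single loci rest largely on a spread shared across loci. A growth chamber or day shared by the libraries of 1 light cannot be told apart from the light itself.

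Blue light is perceived in plants mainly by cryptochromes and phototropins, and cryptochromes act on flowering, the circadian clock and the synthesis of protective pigments. Cytosine methylation in cereals is densest in transposable elements and other repeats, which make up most of the wheat genome. It is laid down and kept by several families of DNA methyltransferases, some of them guided by small RNAs. Bread wheat carries the 3 related subgenomes A, B and D, each with 7 chromosomes. A MeDIP count depends on the number of methylated cytosines under a fragment as well as on the depth of the library. The counts used here hold no input correction. A higher count at a locus thus stands for more recovered DNA and not for a methylation level in percent.

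The libraries of the 2 lights differed in how widely their reads were spread. The B libraries held 19641114 to 21355140 counts and the W libraries 15812048 to 18824815. The difference of the means, 2742510, had p = 0.00216 in a two-sided exact permutation test of 6 against 6 libraries, the smallest p that the design allows (p adjusted over 9 library values 0.0117). A count was found at 4041980 ± 461785 loci per B library and at 2659570 ± 615882 loci per W library (mean ± SD, n = 6 each, exact permutation p = 0.00433, adjusted 0.0117). The 2 ranges overlapped through BP replicate 1, with 3211670 loci, and WP replicate 1, with 3332499 loci. With every library thinned to the smallest total, the values were 3857180 ± 406882 loci under B light and 2621550 ± 591843 loci under W light (exact permutation p = 0.00433, n = 6 each). Fewer of the B counts lay at the tested loci, with 17.5% ± 2.61 in B libraries and 22.3% ± 1.56 in W libraries (mean ± SD, n = 6 each). The tested loci were chosen on these same counts. Of them, 33.3% had a count above 10 in at least 4 W libraries, against 22.7% in at least 4 B libraries. This share is therefore a description and no test of light. Loci with a count had a median length of 855 to 990 bp in the B libraries and of 1020 to 1046 bp in the W libraries. Annotated genes held 4.03% ± 0.88 of the counts of B libraries and 3.59% ± 0.579 of those of W libraries (exact permutation p = 0.346, n = 6 each). The outer 20% of the chromosomes held 14.8% ± 1.04 in B libraries and 14.2% ± 0.662 in W libraries (exact permutation p = 0.331, n = 6 each). Both differences were smaller than the spread between libraries, but the B libraries were split by PUT. Genes held 4.70% to 4.86% of the counts in BC and 2.78% to 3.53% in BP, against 3.01% to 4.70% in W libraries. The outer 20% held 15.66% to 15.72% in BC and 13.32% to 14.24% in BP, against 13.64% to 15.52% in W libraries. WC replicate 1 was the highest W library in both.

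**Figure D1:**
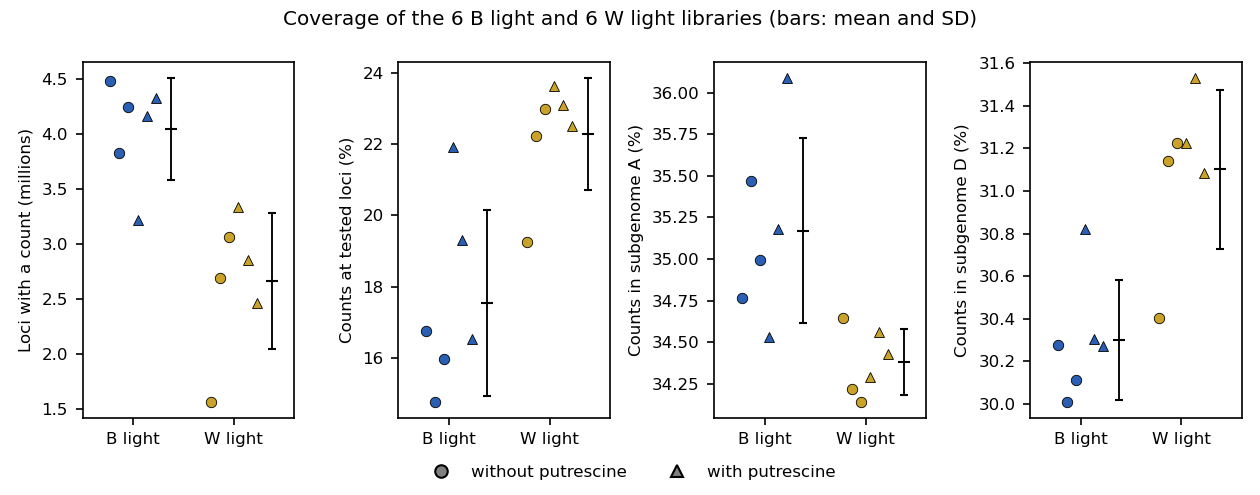
Loci with a count (in units of 1e6), share of the counts at the tested loci (%) and shares of the counts in subgenomes A and D (%), 1 point per library, with B light left of W light and triangles for PUT. The bars are the mean and SD of 6 libraries. B libraries cover more loci, 3211670 to 4482038 against 1563154 to 3332499 in W libraries, and the share of subgenome A lies higher and that of subgenome D lower under B light.

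The subgenomes took different shares of the counts under the 2 lights. Subgenome A held 35.2% ± 0.553 of the counts of B libraries and 34.4% ± 0.198 of those of W libraries (mean ± SD, n = 6 each, exact permutation p = 0.00649, adjusted 0.0117). Subgenome D held 30.3% ± 0.28 in B libraries and 31.1% ± 0.373 in W libraries (exact permutation p = 0.00433, adjusted 0.0117, n = 6 each). Subgenome B held 34.5% ± 0.471 under B light and 34.5% ± 0.343 under W light, a difference of 0.0108 percentage points (exact permutation p = 0.929, n = 6 each). The pattern ran through whole subgenomes. All 7 A chromosomes had a larger share under B light, by 0.0971 to 0.153 percentage points, and all 7 D chromosomes a smaller one, with differences of -0.159 to -0.0747 percentage points. Each of these 14 differences had an adjusted p between 0.0182 and 0.0357 over the 21 chromosomes in the exact permutation test, whereas no B chromosome passed, with adjusted p from 0.473 upwards. Of the 14, 4A had an adjusted p of 0.06 when libraries were permuted within PUT levels, and 5A one of 0.105 at the tested loci alone. The shifts were small, 1.81% to 3.09% of the W mean for the A chromosomes and -3.66% to -1.72% of it for the D chromosomes. The largest A shift was that of 5A, where WC replicate 2 was low. Without that library the 5A difference was 0.103 percentage points. Since the shares of a library sum to a constant, the 21 tests do not stand apart from each other. The B and W libraries did not overlap on chromosome 3A (5.614% to 5.839% under B light, 5.527% to 5.611% under W light). Nor did they on chromosome 5D (4.221% to 4.296% under B light, 4.304% to 4.383% under W light). The other 12 A and D chromosomes overlapped by 1 or more libraries. At the tested loci alone the direction was the same. Subgenome A then held 33.2% ± 0.94 of the counts of B libraries and 32.0% ± 0.275 of those of W libraries, and subgenome D 32.7% ± 0.946 in B and 34.2% ± 0.397 in W libraries (n = 6 each, adjusted p = 0.0346 for both by exact permutation).

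**Figure D2:**
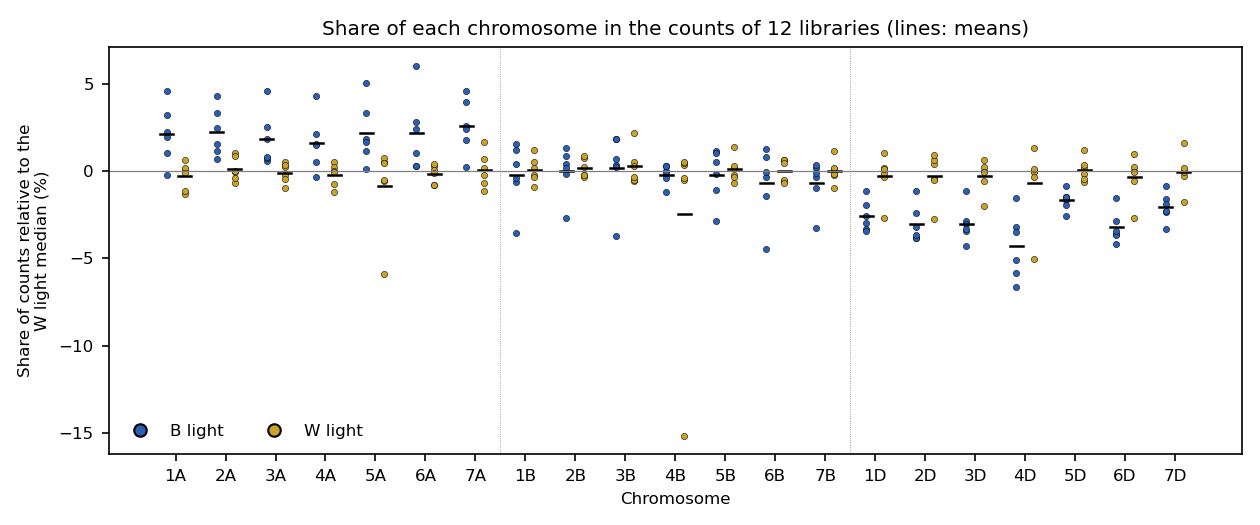
Share of each chromosome in the counts of a library, as the difference from the median of the W libraries in percent, for the 7 chromosomes of each subgenome. The 6 B libraries stand left of the 6 W libraries, with lines at the means. The A chromosomes lie higher and the D chromosomes lower under B light, and 2 single W libraries lie far below the rest, WP replicate 2 on 4B and WC replicate 2 on 5A.

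Per locus, B light went with more counts far more often than with fewer under the main scaling. With the thresholds of the study, p below 0.01 and a log2 fold change beyond 1.5, 5204 loci were called higher under B light (1.54% of those tested) and 310 were called lower (0.0916%). After Benjamini-Hochberg adjustment in edgeR's quasi-likelihood test, 58 loci (0.0171%) were higher at adjusted p below 0.05 and 0 (0%) were lower. At an unadjusted p below 0.05, 3021 loci were lower, and DESeq2 placed 3651 loci higher and 110 lower at adjusted p below 0.05. Of the 58 loci, 41 kept an adjusted p below 0.05 in edgeR's likelihood ratio test and 46 in DESeq2. The balance of directions depended on the scaling. The main fit uses trimmed mean of M-values (TMM) factors computed over the tested loci, under which the median log2 fold change was 0.13. When counts were scaled by the library totals over every locus, 956 loci were called higher and 3693 lower. The median log2 fold change was then -0.37, and 17 loci were higher and 5 lower at adjusted p below 0.05. The 956 were all among the 5204, and the 310 called lower in the main fit were all called lower again. All directions below are therefore relative to the bulk of the tested loci. The main fit also leans on single libraries, since 1796 loci were called higher without BP replicate 3, 2837 without BC replicate 2, 923 without both and 8070 without BP replicate 1. For the loci called lower, the count was 475 without BP replicate 1, 698 without WC replicate 1, and 180, 160, 153 and 167 without WC replicate 2, WC replicate 3, WP replicate 1 and WP replicate 2. The 58 loci at adjusted p below 0.05 became 13 without BC replicate 2, 36 without BC replicate 3, 177 without BP replicate 1, 25 without WC replicate 1, 29 without WC replicate 3 and 38 without WP replicate 2.

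**Figure D3:**
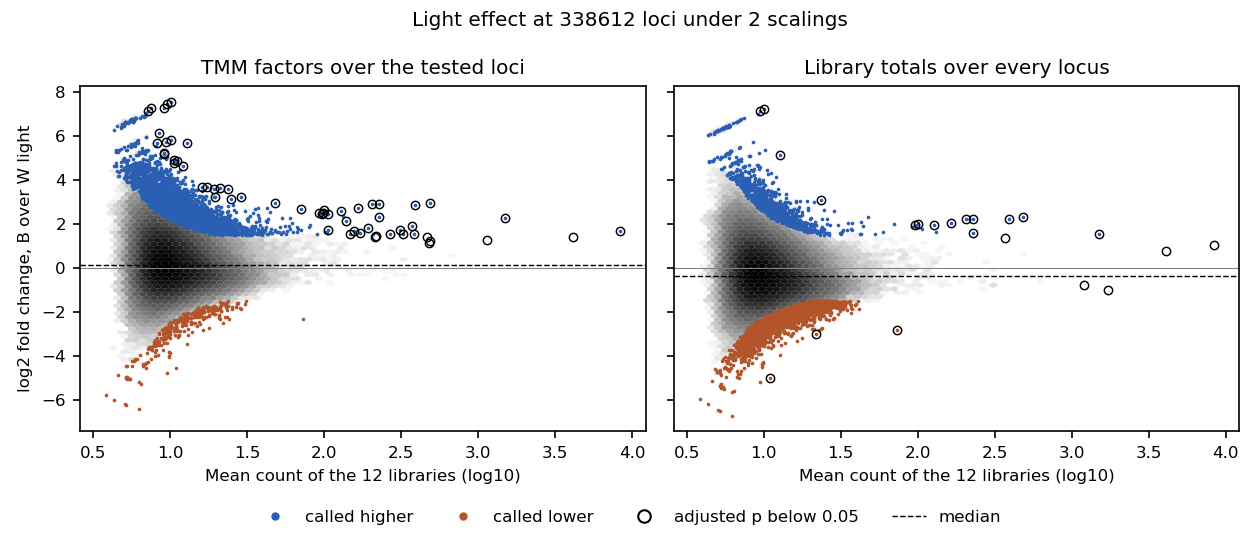
Light effect as log2 fold change, B over W light, against the mean count of the 12 libraries (log10) for the 338612 tested loci, with TMM factors over the tested loci on the left and library totals over every locus on the right. Shading is the density of loci, blue and brown points are called loci, circles have adjusted p below 0.05 and the dashed line is the median. The medians lie at 0.13 and -0.37, with 5204 loci called higher and 310 called lower on the left and 956 called higher and 3693 called lower on the right.

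The loci that could be called higher and lower also differed in how they passed the filter. Of the 5204 loci called higher, 4677 had a count above 10 in at least 4 B libraries and 2124 had none above 10 in any W library. Of the 310 called lower, all 310 had a count above 10 in at least 4 W libraries and 186 had none above 10 in any B library. Over all tested loci the W side was the commoner one, with 76940 (22.7%) above 10 in at least 4 B libraries and 112843 (33.3%) in at least 4 W libraries. Of these, 6121 had no W library above 10, and 10514 had no B library above 10. A locus that passed through 1 light alone differed between the lights at that threshold by the filter itself, though most such loci were not called. When a count above 10 was required in at least 2 B and at least 2 W libraries (added after the data were seen), 224323 loci were tested. Of these, 873 were called higher and 104 lower and 14 were higher at adjusted p below 0.05. On the scale of counts per 1e6 of TMM-scaled depth (CPM), every B library lay above every W library at 1414 loci (0.418%) and below every W library at 653 loci (0.193%). Rank correlations of the log CPM over the tested loci are given as a description because libraries share loci and depth. They ran from -0.11 to 0.36 among B libraries (15 pairs), from 0.05 to 0.30 among W libraries (15 pairs) and from -0.14 to 0.26 between the lights (36 pairs). BC replicate 2 and BP replicate 3 were the closest pair at 0.36 and reached at most 0.002 with any W library. BP replicate 1 had a median of 0.20 with the W libraries and of 0.10 with the other B libraries.

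The direction of the light effect at the called loci was the same with and without PUT. All 5204 loci called higher had positive log2 fold changes in both BC over WC and BP over WP, and all 310 called lower had negative ones in both. As these loci were chosen on the pooled effect, this is a description. Passing p below 0.01 in both strata was rarer, with 140 of the 5204 and 2 of the 310. Over all 338612 tested loci, 153 passed it in both strata with positive and 2 with negative log2 fold changes. Within single strata, 4357 loci were called higher and 448 lower in BC over WC, and 2700 higher and 279 lower in BP over WP. At adjusted p below 0.05, 4 and 6 loci were higher and 0 lower in either (2853 and 2114 lower at an unadjusted p below 0.05, DESeq2 not run on the strata). The light by PUT interaction was called at 1399 loci (0.413%). Of the tested loci, 0 passed an adjusted p of 0.05 in edgeR's quasi-likelihood test or in its likelihood ratio test (unadjusted p below 0.05 in the first of these tests at 3095 and 4661 loci). At the 3095 loci the log2 fold change of B over W light was higher with PUT than without it, and at the 4661 it was lower. Without WC replicate 2 the interaction was called at 391 loci with a higher and 2264 with a lower log2 fold change with PUT, and without WC replicate 3 at 476 and 3622. The smallest interaction p was that of a locus in no gene on chromosome 7D, 164519761 to 164521204. Counts there were 21, 7 and 18 in BP and 0, 2 and 0 in BC, against 0 in each WP library and 14, 34 and 19 in WC. Here light with PUT and light without PUT pointed in opposite directions, with an adjusted p of 1. The next, on 6B, 670811367 to 670813316, had counts of 11, 26 and 60 in BP and 7, 7 and 1 in BC, against 0 in each WP library and 23, 3 and 8 in WC (interaction adjusted p = 1, edgeR).

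**Figure D4:**
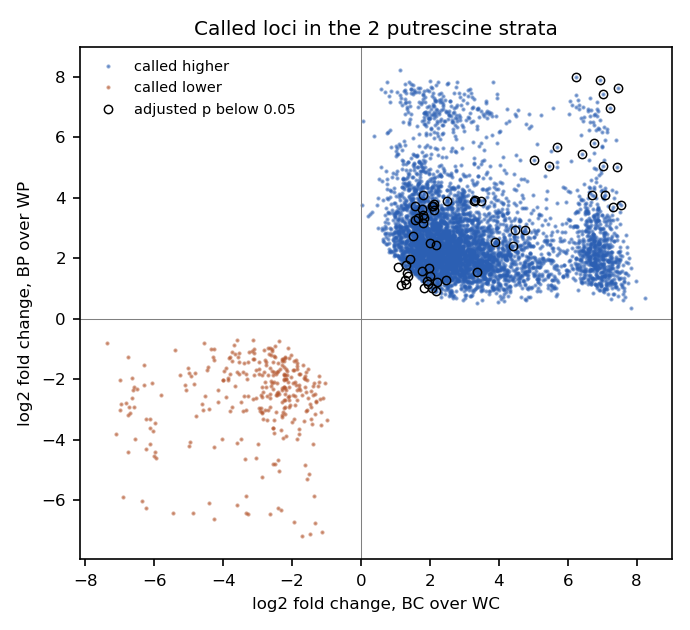
log2 fold change of BC over WC (x axis) and of BP over WP (y axis). Points are the loci called higher (blue) and lower (brown) for the pooled light effect, with circles at adjusted p below 0.05. All called loci lie in the 2 quadrants of equal sign, with bands near 7 that are loci with no count in the W libraries of a stratum.

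The 58 loci at adjusted p below 0.05 showed 3 count profiles, which were set apart after their values had been seen and are given as descriptions. In 24 of them the W libraries averaged under 10 counts, with 14 not overlapping between the lights, log2 fold changes of 3.12 and more, and none within 3000 bp of a tRNA gene. In 23 others the mean count over the 12 libraries was 47.8 to 8346 and BP replicate 3 was the highest B library, followed by BC replicate 2 at 15 and by BP replicate 2 at 8 of them. In the last 11 a BC library was highest, BP replicate 3 was the lowest B library at 10, and WC replicate 1 was the highest W library at 10. No locus of the first 2 profiles overlapped a gene, whereas 5 of the 11 did, and 7 of the 11 lay within 3000 bp of a tRNA gene.

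The first profile is of loci nearly empty under W light. Its members were set apart by a mean W count below 10, and 1 of the 24 passed the filter on both lights and did not keep an adjusted p below 0.05 there. Their fold changes were therefore fixed by the choice and the filter and are given as descriptions, without a test. On chromosome 1D, 366255765 to 366258895, the counts under B light were 11 at the lowest, 21 at the median and 28 at the highest, against 0 in all 6 W libraries. Counts summed to 121 under B light, and set against a floor of 3 counts over the W libraries the locus was at least 50.2-fold higher. A locus on 1B, 289245416 to 289248166, had 7 to 40 counts (median 14) under B light and 0 in each W library, at least 47.3-fold higher. The third, on 4B, 379943881 to 379945448, had 4 to 49 counts (median 11) under B light and 0 in each W library, at least 45.7-fold higher. All 3 lie in no annotated gene and in no 3000 bp flank of one. On 2D, 207275478 to 207278504, B libraries held 16 to 58 counts (median 18.5) and W libraries 0 to 1 (median 0.5). The fitted log2 fold change was 5.69 ± 0.88 (SE). The SE here and below was computed back from the test statistic, which shares its spread across loci. It is not the SE between the libraries at the locus. A locus 256 bp from the long non-coding RNA gene LOC123142852 on 1B, 619780358 to 619782675, had 5 to 47 counts (median 17.5) under B light, against 0 in 5 W libraries and 2 in WP replicate 1. This gave a log2 fold change of 5.81 ± 1.06 (SE). Near the pseudogene LOC123090112 on 4B, 377835968 to 377837953, the B counts were 2 to 52 (median 12.5), against 0 in 5 W libraries and 2 in WP replicate 1. The ranges met at 2 counts. Here the log2 fold change was 5.67 ± 1.15 (SE).

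More loci had no count at all in the W libraries than in the B libraries, while at the filter's threshold of 10 counts the W side was the commoner one, as given above. Of the tested loci, 46 had no count in any W library and 5 none in any B library. Over all 11509120 loci, 5903 had a count in each B library and none in any W library, and 137 had a count in each W library and none in any B library. Loci with a count in B libraries only numbered 4047822, those in W libraries only 1350704, and those in both lights 6110594. These counts moved with the wider spread of the B libraries given above, and its part in them was not tested. Of the 24 loci of this profile, 19 were still called without BC replicate 2 and BP replicate 3, but 1 kept an adjusted p below 0.05. With 1 library left out, 5 kept it without BP replicate 3, 6 without BC replicate 2 and 8 without WC replicate 1.

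The second profile holds loci of moderate to high depth, with mean counts of 47.8 to 8346 over the 12 libraries. The smallest p of the comparison belonged to a locus in no gene on chromosome 4B, 592421107 to 592422674. It had 5434 to 26466 counts (median 8366.5) under B light and 3825 to 6318 counts (median 4928) under W light. Its CPM averaged 3823 ± 3108 in B libraries and 1186 ± 196 in W libraries (SD, n = 6 each). The CPM ranges did not overlap, but only just, with 1429.55 as the lowest B value and 1428.2 as the highest W value. The light effect was a log2 fold change of 1.69 ± 0.20 (SE) with adjusted p = 3.71e-06 in edgeR's quasi-likelihood test. This SE and p draw on the spread of other loci, while the B libraries at this locus ran from 1429.55 to 9473.73 CPM. The adjusted p was 0.0578 in its likelihood ratio test, and DESeq2 gave this locus no p-value. The value of BP replicate 3, 26466, was the highest, followed by 15541 in BC replicate 2, and the log2 fold change without both was 0.73 (adjusted p = 1.62e-07). The outermost 96 bp of chromosome 4A, 1 to 96, had 79 to 3077 counts (median 447.5) under B light and 53 to 184 (median 105.5) under W light. Its log2 fold change was 2.96 ± 0.43 (SE, adjusted p = 0.000249). Its lights overlapped, since BC replicate 1, BC replicate 3 and BP replicate 1 held 79, 165 and 83 counts. Loci on 5A (346441270 to 346442186), 3B (234008614 to 234010295) and 4A (342355916 to 342356727), all in no gene, repeated this order of libraries. They had 59 to 2498, 26 to 1335 and 27 to 1425 counts under B light, against 33 to 146, 32 to 74 and 24 to 97 under W light. Their log2 fold changes were 2.86 ± 0.42, 2.92 ± 0.46 and 2.90 ± 0.47 (SE). Without BC replicate 2 and BP replicate 3 they were 1.27, 1.24 and 1.23, each with an adjusted p of 1. A locus on 2B, 76524589 to 76526344, 817 bp from the protein-coding gene LOC123043574, had 182 to 741 counts (median 268) under B light and 99 to 250 (median 158.5) under W light. The fitted log2 fold change was 1.55 ± 0.29 (SE, adjusted p = 0.0193, against 0.133 in edgeR's likelihood ratio test and 0.00557 in DESeq2). Without these 2 libraries it was 0.75, with adjusted p 1. Of the 23 loci of this profile, 2 kept an adjusted p below 0.05 and 1 was called when both libraries were left out. With 1 library left out, 10 kept it without BP replicate 3, 3 without BC replicate 2 and 7 without WC replicate 1. With BC replicate 2 and BP replicate 3 both left out, the median log2 fold change of the 23 loci was 1.00, against 2.44 with all libraries. In the same direction, the share of all counts within 10000 bp of a chromosome end was 0.0273% in BP replicate 3, 0.0119% in BP replicate 2 and 0.00933% in BC replicate 2, against 0.0045% to 0.0073% in each of the other 9 libraries. The part of this share in these results was not tested. Of the 27 tested loci within 10000 bp of a chromosome end, 9 were called higher and 0 lower, beside 1.54% and 0.0916% of all tested loci.

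The third profile lay mostly at or near tRNA genes and once over a gene model named after a chloroplast protein. On chromosome 5D, 567840431 to 567842405, in no gene, the counts were 232 to 929 (median 559) under B light and 110 to 241 (median 185.5) under W light. Its CPM averaged 173 ± 91.2 in B libraries and 42.3 ± 10.8 in W libraries (SD, n = 6 each) without overlap. The light effect was a log2 fold change of 1.89 ± 0.24 (SE) with adjusted p = 1.37e-05 (edgeR), and of 1.84 with adjusted p = 1.1e-06 without BC replicate 2 and BP replicate 3. A locus on 2D, 652664730 to 652667403, which overlaps the cysteine tRNA gene TRNAC-GCA, had 197 to 673 counts (median 460) under B light and 90 to 256 (median 155) under W light. This gave a log2 fold change of 1.71 ± 0.25 (SE, adjusted p = 0.000249). On 1D, 395747225 to 395748824, 444 bp from TRNAW-CCA and 657 bp from TRNAP-UGG, the tRNA genes for tryptophan and proline, the B libraries held 97 to 406 counts (median 300.5) and the W libraries 41 to 232 (median 78.5). Here the log2 fold change was 1.83 ± 0.29 (SE, adjusted p = 0.00093). The leucine tRNA gene TRNAL-UAG on 1B, under the locus 89315249 to 89317886, had 120 to 724 counts (median 480.5) under B light and 67 to 367 (median 159) under W light. Its log2 fold change was 1.55 ± 0.28 (SE, adjusted p = 0.00979). On 4D, 207321391 to 207323504, over TRNAS-UGA and the protein-coding genes LOC123097282 and LOC123097283, the counts were 129 to 340 (median 262) under B light and 56 to 177 (median 89.5) under W light, without overlap of the CPM. The fitted log2 fold change was 1.59 ± 0.29 (SE, adjusted p = 0.0109, and 0.17 without BC replicate 2). The locus near LOC123055164 and TRNAT-UGU on 2D, 631228986 to 631230304, had 71 to 342 counts (median 215.5) under B light and 34 to 104 (median 90) under W light. This gave a log2 fold change of 1.55 ± 0.31 (SE, adjusted p = 0.03). On 1D, 147162870 to 147165382, 2411 bp from LOC123180806, the counts were 284 to 802 (median 532.5) under B light and 110 to 464 (median 176) under W light. Here the log2 fold change was 1.55 ± 0.26 (SE, adjusted p = 0.00204). By edgeR's likelihood ratio test the adjusted p was 0.0436 at the 5D locus and 0.0573 to 0.156 at the others named here. In DESeq2 it was 0.0035 or lower at each.

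The only one of these genes with a product name in the annotation read here is LOC123067330, a photosystem II D2 protein-like gene. The D2 protein is a core subunit of the photosystem II reaction centre and is encoded in the chloroplast genome of plants. The locus, on chromosome 1A, 556463121 to 556465346, overlaps this gene and the serine tRNA gene TRNAS-GCU. It had 45 to 305 counts (median 146.5) under B light and 25 to 116 (median 48) under W light. Its CPM averaged 48.0 ± 31.8 in B libraries and 13.4 ± 7.76 in W libraries (SD, n = 6 each). At this locus the log2 fold change was 1.73 ± 0.34 (SE), with adjusted p = 0.0307, against 0.0661 without WC replicate 1, 0.485 without BC replicate 2 and 0.0794 without both BC replicate 2 and BP replicate 3. With all libraries, the adjusted p was 0.1 in edgeR's likelihood ratio test and 0.000294 in DESeq2. Of the 11 loci of this profile, 4 kept an adjusted p below 0.05 without BC replicate 2, 7 without WC replicate 1, 11 without BP replicate 3 and 10 without both BC replicate 2 and BP replicate 3, where the median log2 fold change was 1.70. Scaled by library totals, 2 of the 11 kept it. Among all tested loci, 75 overlapped a tRNA gene, of which 12 were called higher and 0 lower, beside 1.54% and 0.0916% of all tested loci, with a median log2 fold change of 0.57 beside 0.13 over all loci. Values of whole libraries moved with this profile. The share of counts at loci in tRNA genes was 0.0327% to 0.0362% in BC and 0.0172% to 0.0236% in BP, against 0.0143% to 0.0199% in 5 W libraries and 0.0297% in WC replicate 1. The share on the mitochondrial sequence was 0.00116% to 0.00138% in BC and 0.00046% to 0.00073% in BP, against 0.00033% to 0.00056% in those 5 W libraries and 0.00104% in WC replicate 1. The table holds no locus on a chloroplast sequence, and the part of organelle DNA in these differences was not tested.

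**Figure D5:**
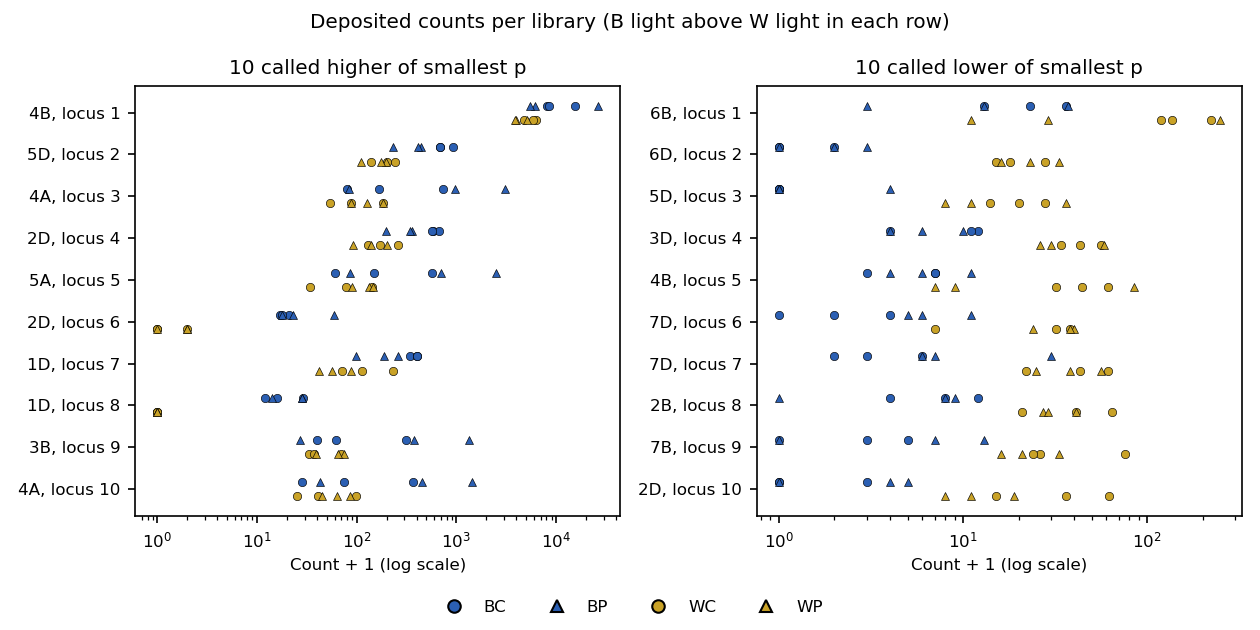
Deposited counts plus 1 (log scale) in the 12 libraries at the 10 loci called higher (left) and the 10 called lower (right) of smallest p. B libraries are drawn in blue above W libraries in yellow in each row, with triangles for PUT. Among the loci called higher, 1D (locus 8) has 0 counts in all W libraries, and 4A, 5A and 3B (loci 3, 5, 9 and 10) are led by BP replicate 3, BP replicate 2 and BC replicate 2.

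Among the loci called lower under B light, none passed an adjusted p of 0.05 in the main fit, and the 10 of smallest p are described here. The first, on 6B, 730346275 to 730346651, overlaps the protein-coding gene LOC123140149 and had 2 to 36 counts (median 17) under B light and 10 to 247 (median 127) under W light. The lights overlapped, because WP replicate 3 and WP replicate 2 held 10 and 28 counts, 2.45 and 7.13 CPM, and B libraries reached 11.1 CPM. At this locus the log2 fold change was -2.33 ± 0.49 (SE, adjusted p = 0.0588 in edgeR's quasi-likelihood test and 1.03e-05 when scaled by library totals). A locus on 6D, 275033649 to 275036425, in no gene, had 0 to 2 counts (median 0.5) under B light and 14 to 32 (median 19.5) under W light, without overlap. Its log2 fold change was -4.53 ± 1.02 (SE, adjusted p = 0.111). On 5D, 16104457 to 16105925, counts were 0 in 5 B libraries and 3 in BP replicate 2, against 7 to 35 (median 16) in the W libraries. The fitted log2 fold change was -4.79 ± 1.18 (SE, adjusted p = 0.183). The locus on 3D, 207777399 to 207782895, did not overlap either, with 3 to 11 counts (median 7) under B light and 25 to 57 (median 37.5) under W light. This gave a log2 fold change of -2.24 ± 0.57 (SE, adjusted p = 0.204). A stretch of 41 bp on 4B, 17137693 to 17137733, within LOC123090630, a serine/arginine repetitive matrix protein 1-like gene, had 2 to 10 counts (median 5.5) under B light and 6 to 84 (median 37) under W light. Here the log2 fold change was -2.50 ± 0.63 (SE, adjusted p = 0.207). The other 5, on 7D (236301956 to 236304700 and 209066991 to 209072167), 2B (299394277 to 299399692), 7B (347991329 to 347995378) and 2D (234093713 to 234096383), had log2 fold changes from -3.48 to -2.31 and adjusted p from 0.212 to 0.258, and the last 3 did not overlap in CPM.

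Genes lay under few of the called loci. Of the 5204 loci called higher, 3.40% overlapped an annotated gene, as did 4.19% of the 310 called lower and 3.55% of all tested loci. Within 3000 bp of a gene the shares were 7.82%, 7.10% and 9.29%. Loci called higher overlapped 192 genes, 107 of them protein-coding, and loci called lower 13 genes, 12 of them protein-coding. Of the next loci near genes among those called lower, that on 4B, 15708581 to 15712124, over LOC123090614, a TLC domain-containing protein 4-like gene, had 0 to 7 counts (median 3) under B light and 15 to 38 (median 23.5) under W light. Its log2 fold change was -2.92 ± 0.79 (SE, adjusted p = 0.273). Another, on 2B, 286679439 to 286682785, over the pseudogene LOC123039199, had 1 to 10 counts (median 4) under B light and 18 to 35 (median 28.5) under W light. Both were free of overlap. The remaining 6 loci near genes, with LOC123144215, LOC123092452, LOC123052575, LOC123125058, LOC123052618 and LOC123157126 as the nearest genes, had adjusted p from 0.437 to 0.5. That of LOC123052575 on 2D, 206274203 to 206275288, had 0 counts in each B library and 0, 0, 18, 11, 11 and 12 in the W libraries, at least 13.9-fold lower under B light against a floor of 3 counts over the B libraries.

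By subgenome, 1.76% of the tested A loci, 1.53% of the B loci and 1.33% of the D loci were called higher, and 0.0756%, 0.0909% and 0.108% were called lower. The median log2 fold changes were 0.20 in A, 0.13 in B and 0.06 in D. By depth, 29 of the 58 loci at adjusted p below 0.05 came from the 167 tested loci with a mean count above 100, and 9 from the 183021 loci with a mean count above 5 and up to 10. The median length was 2967.5 bp for loci called higher, 2648 bp for those called lower and 2805 bp for all tested loci.

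Genes of pathways linked to light, pigments, polyamines and chromatin were looked up by product name. Only 1007 genes have a name in the annotation tables read here, part of which the study drew up from these same libraries. The lists are thus short and are no independent evidence of a direction. Their counts stand beside 1.54% of all tested loci called higher and 0.0916% called lower. For light receptors and light signalling, 7 loci near 5 genes were tested and 0 were called in either direction (0 higher and 1 lower at an unadjusted p below 0.05, 0 by adjusted p in edgeR). The locus 2575 bp from LOC123079744, a UVR8-like gene whose Arabidopsis relative perceives ultraviolet-B, had 6 to 26 counts under B light and 3 to 23 under W light (log2 fold change 1.27, adjusted p = 0.905). The locus that was lower at an unadjusted p below 0.05 lies 966 bp from LOC123141300, a FAR-RED ELONGATED HYPOCOTYL 3-like gene. It had 0 to 13 counts under B light and 0 to 24 under W light (log2 fold change -2.44, adjusted p = 0.779). Another locus, overlapping this gene, had a log2 fold change of 1.42 (adjusted p = 0.929). For the circadian clock and flowering time, 1 of 4 loci was called higher. It lies on 3B, 6587496 to 6591514, 1496 bp from LOC123064276, a FLOWERING LOCUS T-like gene whose Arabidopsis relative is the mobile signal for flowering. Its counts were 14 to 31 (median 17) under B light and 3 to 9 (median 6.5) under W light, and all B libraries lay above all W libraries. At this locus the log2 fold change was 2.01 ± 0.67 (SE, adjusted p = 0.483 in edgeR). The locus 153 bp from LOC123085861, a CONSTANS-LIKE 13-like gene, pointed the other way with 0 to 12 counts under B light and 10 to 26 under W light (log2 fold change -1.73, adjusted p = 0.797), and was not called.

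Among photosystem and light harvesting genes, 2 of 5 loci were called higher and 0 lower (1.54% and 0.0916% over all tested loci), with a list median of 1.41 beside 0.13 over all tested loci. Beside the D2-like gene above, this was LOC123060531, named photosystem I P700 chlorophyll a apoprotein A2, another protein that chloroplast genomes encode. Its locus on 3A, 105923922 to 105925192, had 8 to 38 counts (median 15.5) under B light and 0 to 13 (median 6.5) under W light. The fitted log2 fold change was 1.96 ± 0.72 (SE, adjusted p = 0.579). A second D2-like gene, LOC123045574 on 2B, had 22 to 123 counts under B light and 22 to 73 under W light (log2 fold change 1.05, adjusted p = 0.612) and was not called. The nuclear LOC123068673, a chlorophyll a-b binding protein gene on 1A, overlaps a locus with 28 to 56 counts under B light and 3 to 39 under W light (log2 fold change 1.41, adjusted p = 0.5), just under the fold threshold. Another locus, 1252 bp from this gene, pointed the other way with 4 to 22 counts under B light and 4 to 31 under W light (log2 fold change -0.51, adjusted p = 0.993). For chlorophyll and carotenoid metabolism, 0 of 5 loci were called, with a median log2 fold change of -0.64 and 0 at an unadjusted p below 0.05 in either direction.

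For flavonoids and phenylpropanoids, 1 of 7 loci was called higher and 6 of 7 had positive log2 fold changes, with a median of 2.06, while 55.8% of all tested loci were positive. The called one lies 33 bp from LOC123165973, a cinnamoyl-CoA reductase 1-like gene of the lignin pathway, on 7D, 337984666 to 337987613. It had 4 to 29 counts (median 22) under B light and 0 to 16 (median 5) under W light. This gave a log2 fold change of 2.06 ± 0.77 (SE, adjusted p = 0.586). The single polyamine gene with tested loci, LOC123125309 (putrescine hydroxycinnamoyltransferase 3-like, also counted with the phenylpropanoids), had 0 of 2 loci called. Their log2 fold changes were 3.20 (adjusted p = 0.763) and 0.13 (adjusted p = 1). LOC123103996, a DRM2-like gene whose Arabidopsis relative methylates DNA under the guidance of small RNAs, had 1 to 21 counts under B light and 0 to 16 under W light (log2 fold change 1.84, adjusted p = 0.828). LOC123137655, an argonaute 1A-like gene of the small RNA pathways, had 3 to 15 counts in B libraries and 0 to 13 in W libraries (log2 fold change 1.66, adjusted p = 0.915). For histone modification and chromatin remodelling, 1 of 6 loci was called higher. That of LOC123116230, a SETD1A-like histone-lysine N-methyltransferase gene, on 5B, 402740701 to 402745812, had 9 to 40 counts (median 34.5) under B light and 2 to 21 (median 15) under W light. Here the log2 fold change was 1.63 ± 0.56 (SE, adjusted p = 0.501). None of the called loci of these lists other than that of LOC123067330 passed an adjusted p of 0.05 in the main fit.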

How the data were processed

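The deposited table holds raw counts, made by the authors from MeDIP reads that were trimmed (Trim Galore, cutadapt), checked with FastQC, mapped with BWA and counted per locus with bedtools on the IWGSC CS RefSeq v2.1 genome, per the submitters' processing notes and the study's methods. The counts are not normalized and hold no input correction, and input libraries were not used here. Coordinates are given counting from 1. Loci with a count above 10 in at least 4 of 12 libraries were tested in edgeR 4.0.16 (R 4.3.3) by its quasi-likelihood test. The fit had light and PUT as additive factors, TMM factors over the tested loci and Benjamini-Hochberg adjustment. Dispersions followed a trend over loci, with no value of its own for each locus. The quasi-likelihood spread of a locus was then drawn towards that of other loci, with 53.1 prior against 9 residual degrees of freedom. An SE given with a log2 fold change is its size divided by the square root of the F statistic of that test. A call is a p below 0.01 with a log2 fold change beyond 1.5 in size. The study used edgeR's likelihood ratio test, which was run as an alternative. It was run here with the pooled design, filter and trend of dispersions of the main fit, and so does not repeat the study's comparisons of single groups. Other alternatives were DESeq2 1.42.0 (its undefined adjusted p-values, 13556 loci, were left undefined), other scalings, filters and designs, and leaving out each library. Library values were compared by two-sided exact permutation over 924 assignments, with Benjamini-Hochberg adjustment within each family. The fits were tested on simulated data. Genes came from the RefSeq gene table of the same genome and product names from annotation tables of the study. The loci named are the 10 of smallest p among those called in each direction, the 10 called of smallest p within 3000 bp of a gene, the called loci of each gene list and the 2 of smallest interaction p. Other W-empty loci with an adjusted p below 0.05 were added after their values were seen. Some uncalled loci of the gene lists are named as well, by no fixed rule. The comparison, lists and loci were chosen with earlier results of these data known. Totals of 15812048 to 21355140 counts limit precision at low counts, since a median tested locus averaged 9.67 counts a library.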

Additional observations from a re-analysis of the deposited data

Results flagged for a closer look

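Among 142 sets of 6 libraries of 1 light, 25 held 1 library set apart from the other 5 by Dixon's test, 14 under B light and 11 under W light. Many sets are shares that depend on each other or values at loci chosen in these same data. The 25 are therefore a description and are not set against a rate by chance. Of the B libraries, BP replicate 3 had a low share of counts in subgenome B (33.6%, others 34.5% to 35.0%), on 3B (5.22%, others 5.43% to 5.52%) and on 7B (5.25%, others 5.37% to 5.44%). BP replicate 1 had a high share in subgenome D (30.8%, others 30.0% to 30.3%). Of the W libraries, WC replicate 1 had a low share of counts at the tested loci (19.3%, others 22.2% to 23.6%) and on 4D (4.16%, others 4.37% to 4.44%) and high shares in the outer 20% of chromosomes (15.5%, others 13.6% to 14.3%) and in genes (4.70%, others 3.01% to 3.602%). WP replicate 2 was low on 4B (4.67%, others 5.47% to 5.53%) and WC replicate 2 on 5A (4.68%, others 4.95% to 5.01%).

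At single loci, BP replicate 3 stood above the other B libraries with 1101 CPM at 4A 1, 894 CPM at 5A 346441270, 478 CPM at 3B 234008614, 510 CPM at 4A 342355916, 20.8 CPM at 2D 207275478, 18.6 CPM at 4B 377835968 and 21.5 CPM at 6B 670811367, each locus given by its start. BP replicate 2 was the only B library with a count at 5D 16104457 (0.789 CPM) and 5D 388862986 (0.263 CPM), and BP replicate 1 was high at 7D 209066991 (6.86 CPM). Among the W libraries, WP replicate 1 was the only one with a count at 1B 619780358 and 4B 377835968 (0.485 CPM at both) and was low at 2D 631228986 (8.24 CPM). WC replicate 1 was high at 7B 347991329 (16.95 CPM) and 6B 670811367 (5.20 CPM).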

How the results depend on the processing

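Counts of called loci moved with the processing, and scaling by library totals turned the majority of calls from higher to lower. Against 5204 loci called higher, 310 called lower, 58 higher and 0 lower at adjusted p below 0.05, edgeR's likelihood ratio test gave 9853, 811, 792 and 14, and DESeq2 gave 14516, 1479, 3651 and 110. The likelihood ratio test kept 41 of the 58 loci at adjusted p below 0.05, and DESeq2 kept 46. Scaling by library totals over every locus gave 956, 3693, 17 and 5, and by totals over the tested loci 951 called lower and 2 lower at adjusted p below 0.05. With 1 coefficient per group, 516 loci were called lower and 108 were higher at adjusted p below 0.05. A count above 10 in 2 libraries as the filter gave 16730, 1716, 168 and 3, in 6 libraries 1750, 158, 5 and 0, a count above 20 in 4 libraries 1052, 65, 9 and 0, and a mean count above 10 gave 2473, 201, 4 and 0, while no filter gave 113367, 6375, 80 and 5. With alternatives chosen after seeing the data, requiring more than 10 counts in no fewer than 2 libraries of either light gave 873, 104, 14 and 0, leaving out BC replicate 2 and BP replicate 3 gave 923, 218, 13 and 0, and leaving out WC replicate 1 and BP replicate 3 gave 2006, 639, 38 and 0. The cause of these shifts was not tested, beyond the different number of loci under each filter. Leaving out 1 library gave 1796 to 8070 called higher, 153 to 698 called lower, 13 to 177 higher and 0 to 1 lower at adjusted p below 0.05, and 1054 to 4098 called for the interaction, against 1399 with all libraries and 3893 by the likelihood ratio test. At the tested loci alone, the difference in total count was -364342, that in loci with a count 20989 without passing the test and that in the share of the 1000 loci of highest total 0.719 percentage points, now past it, and 1 B chromosome, 6B, was lower. For 4A the adjusted p was 0.06 by permutation within PUT levels, and for 5A it was 0.105 at the tested loci. Genes with a locus called higher numbered 482 with flanks of 3000 bp and 81 with 0.5 of the locus required inside, against 192, and those with a locus called lower 28 with flanks, against 13. For the 22 named loci called higher, 110 of 644 values under other settings lost the call and 0 turned sign, and for the 18 called lower it was 23 of 507 and 0.

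The replicate number as a block gave 5196 loci called higher, 271 called lower, 61 higher and 0 lower at adjusted p below 0.05, and 959 called for the interaction. The numbers did not pair the libraries, since same-numbered libraries of different groups had correlated deviations of -0.09 to 0.16 (18 pairs) and other pairs of -0.19 to 0.24 (36 pairs), and a library fitted best with its own number in 11 of 36 cases.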

Other observations

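The low shares of WP replicate 2 on 4B and of WC replicate 2 on 5A followed the chromosomes and not single loci. In windows of 10 Mb, each library's share of the counts was divided by the median of the 12 libraries. WP replicate 2 had a median ratio of 0.858 over the 68 windows of 4B, from 0.771 to 0.913, so that every window was low. WC replicate 2 had a median ratio of 0.850 in the 24 windows of 5A below 240 Mb, from 0.798 to 0.877, and of 0.983 in the 48 windows beyond. In the other 250 pairs of chromosome and library the median ratio was between 0.950 and 1.05. Without WP replicate 2, chromosome 4B held 5.49% ± 0.0309 of the counts under B light (SD, n = 6) and 5.51% ± 0.0281 under W light (SD, n = 5, exact permutation p = 0.385). Without WC replicate 2, chromosome 5A held 5.09% ± 0.087 under B light (n = 6) and 4.98% ± 0.0312 under W light (n = 5, exact permutation p = 0.026). These windows were examined after the shares had been seen.

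Loci in rRNA genes, which were in no comparison, held 0.0102% to 0.0136% of the counts in B libraries and 0.0132% to 0.0161% in W libraries. Loci with a count held 4.47 to 6.12 counts on average in B libraries and 5.41 to 10.1 in W libraries.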
